A study of Mus musculus with 6 samples.

Results

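Neutrophils are short-lived granulocytes that are made in the bone marrow, circulate in blood and enter tissues early in inflammation. The cytokine G-CSF, the product of Csf3, binds its receptor Csf3r on granulocytes and their precursors and drives their production and release. Mature neutrophils hold large amounts of the calcium-binding proteins S100A8 and S100A9, carry the surface protein Ly6G in mice, and respond through receptors such as TREM1. In brown adipose tissue (BAT), the organ that burns fat to produce heat, leukocytes are a minor population beside adipocytes and endothelium.

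The neutrophil genes described here are 9 of the 35976 genes listed in the deposited count table: S100a8, S100a9, Csf3r, Csf3, Ly6g, Retnlg, Trem1, Hcar2 and Stfa2l1. They were chosen by gene symbol as markers of neutrophils, and all 9 were found in the table. Some are not particular to neutrophils: Csf3 encodes a cytokine that acts on neutrophils and is made mainly by other cells, Csf3r and Trem1 are also expressed by monocytes, and Hcar2 is also a receptor of adipocytes and macrophages.

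BAT of 3 WT and 3 sST2-KO samples was measured by RNA-seq. The study's mice were 10-week-old males on a C57BL/6J background. The sST2-KO mice were homozygous in all cells for a CRISPR/Cas9 deletion that removes introns 8 to 9 of Il1rl1, where the stop codon of soluble ST2 (sST2) lies. sST2 is a circulating decoy form of the IL-33 receptor. The WT mice were littermates. All 6 samples came from mice whose BAT had been surgically denervated and that were kept at 30 °C for 7 days and then at 10 °C for 8 h, so that no sample shows intact innervation or warm housing. The labels name the groups as WT and ST2-KO and do not state that each library came from a different mouse. The study's legend for this comparison of mice gives n = 3 per group. The p-values set the difference between the groups against the spread between these libraries.

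Counts summed to between 8159442 and 12874809 per library, and values are given as CPM, counts scaled to a common library size after TMM normalization, in the order of replicates 1, 2 and 3. edgeR's quasi-likelihood test was run over the 14542 genes that passed the expression filter, with Benjamini-Hochberg adjustment over all of them, and a gene is called where its adjusted p is under 0.05 and its fold change above 2. The targeted gene, Il1rl1, had 19, 19 and 6 counts in WT and 55, 69 and 142 counts in sST2-KO BAT. These counts add up sST2 and the membrane receptor ST2L and do not check the genotype. The libraries of the 2 groups also differed in the levels of markers of other cells. All 6 brown adipocyte markers were called lower in sST2-KO BAT, with summed levels of 6589 to 12726 CPM in WT and 279 to 1431 CPM in sST2-KO libraries. All 5 erythrocyte markers were called lower as well (484 to 1584 CPM against 11.1 to 107 CPM). The summed skeletal muscle markers lay at 7.77 to 1218 CPM in WT and 3474 to 14831 CPM in sST2-KO libraries, with 0 of 8 called by edgeR, 6 of 8 at an unadjusted p under 0.05 and 2 of 8 called by DESeq2. In bulk tissue, more neutrophils, fewer adipocytes beside them and more RNA of a gene per neutrophil cannot be told apart. Nor can fewer adipocytes be told apart from less marker RNA per adipocyte.

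Of the 9 neutrophil genes, 5 were called higher in sST2-KO BAT (Csf3r, Csf3, Trem1, Hcar2 and Stfa2l1), 0 were called lower, and 4 did not pass the adjusted threshold (S100a8, S100a9, Ly6g and Retnlg). Of those called, Csf3r, Csf3, Trem1 and Hcar2 are the genes named above as not particular to neutrophils. At an unadjusted p under 0.05, all 9 neutrophil genes were higher and 0 lower, beside 5269 of the 14542 genes tested in either direction. DESeq2 also called 0 of the 9 lower. Among all genes tested, 9.04% were called higher and 7.10% were called lower. All 9 had a positive log2 fold change and all 9 passed the expression filter. The median of the 9 log2 fold changes was 2.75, beside 0.034 over all genes tested. In 6 of the 9, every sST2-KO library lay above every WT library, as did 21.8% of all genes tested. The count called among the 9 rested on single libraries: it was 0 without WT replicate 3, and 3 without WT replicate 1 or WT replicate 2. Without WT replicate 3, 36 genes of the whole table were called higher. In that fit, 3797 of 15085 genes tested had an unadjusted p under 0.05, as did all 9. DESeq2 called 8 of the 9, as S100a8, S100a9 and Retnlg were added, beside 1602 of all 14542 genes called higher.

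**Figure D1:**
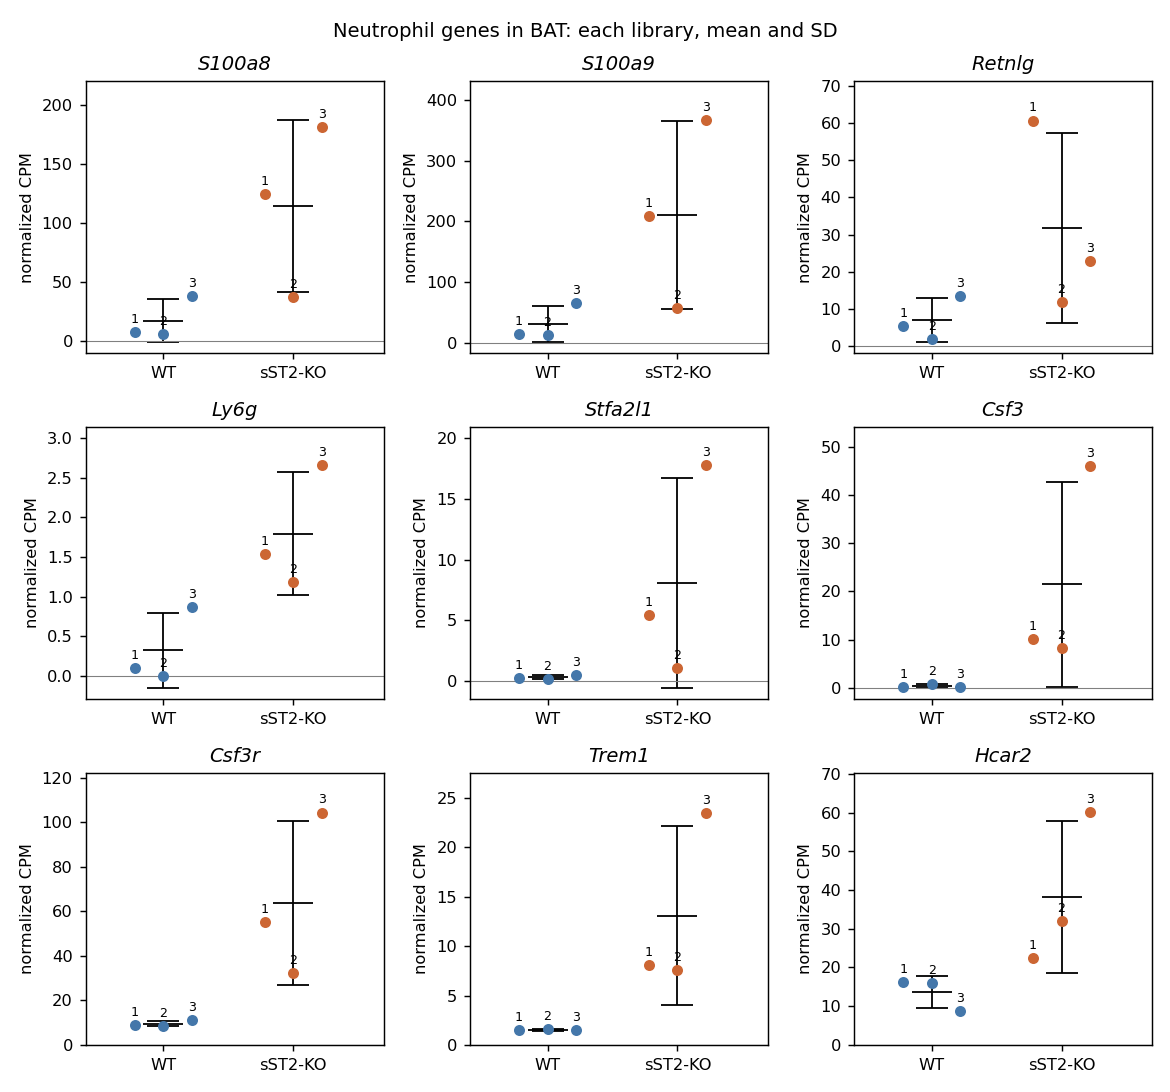
Normalized CPM of each neutrophil gene in each library of BAT, WT in blue and sST2-KO in orange, with the replicate number beside each point and the mean and SD of 3 libraries as bars. S100a8, S100a9 and Retnlg overlap between the groups, with WT replicate 3 highest in WT, and the other 6 genes do not overlap.

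The 250 bases upstream of the canonical start were read from GRCm39 and searched on both strands for short motifs, since all 9 genes had a positive log2 fold change. The first was TTGCNNAA, a form of the site of C/EBP factors, which act in granulocyte development. Others were TTCNNNGAA (STAT) and GGANTTTCC (NF-kB), then TGANTCA, a form of the site of AP-1, a factor induced by stress and cytokines, and the TATA box with the letters TATAAA. The C/EBP letters stood in the windows of Hcar2, S100a9 and Ly6g, and in 9.34% of the windows of 21770 protein-coding genes. Hcar2 held them 3 times, from position -229, -151 and -135 to the start. The STAT letters stood in Trem1 from -188 (7.7% of all windows) and the TATA letters in Ly6g from -78 (11.9%). The NF-kB and AP-1 letters, which stood in 1.18% and 6.17% of all windows, were in none of the windows printed here. No match overlapped another. A match is a description of the letters and does not show that a factor binds. These 3 windows, which hold the C/EBP letters, are printed 5′ to 3′ on the gene's strand with every match in capitals.
Hcar2 (chr5:124003563-124003812, minus strand): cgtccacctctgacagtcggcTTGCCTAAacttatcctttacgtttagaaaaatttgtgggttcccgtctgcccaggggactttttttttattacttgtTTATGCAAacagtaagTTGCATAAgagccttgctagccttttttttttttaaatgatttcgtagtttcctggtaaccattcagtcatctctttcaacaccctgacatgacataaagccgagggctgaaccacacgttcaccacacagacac
S100a9 (chr3:90603072-90603321, minus strand): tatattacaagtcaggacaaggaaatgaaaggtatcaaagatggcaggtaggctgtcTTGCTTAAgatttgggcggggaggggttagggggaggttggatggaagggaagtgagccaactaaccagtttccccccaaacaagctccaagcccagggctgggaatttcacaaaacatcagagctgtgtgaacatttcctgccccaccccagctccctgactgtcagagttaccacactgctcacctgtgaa
Ly6g (chr15:75026839-75027088, plus strand): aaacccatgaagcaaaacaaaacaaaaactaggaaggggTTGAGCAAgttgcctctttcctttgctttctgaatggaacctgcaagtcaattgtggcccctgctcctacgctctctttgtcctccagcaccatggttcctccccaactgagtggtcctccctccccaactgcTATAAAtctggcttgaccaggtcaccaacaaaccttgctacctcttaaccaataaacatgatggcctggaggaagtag

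S100a8 and S100a9 encode the subunits of calprotectin, an abundant cytosolic complex of neutrophils that binds calcium and zinc and is released in inflammation. They lie next to each other on chromosome 3 of GRCm39, S100a8 at 90567118 to 90578128 on the plus strand with 3 exons and S100a9 at 90599931 to 90603071 on the minus strand with 3 exons, with 21802 bases between them. S100a8 had 7.65, 5.84 and 38.3 CPM in the WT libraries and 125, 36.9 and 181 CPM in the sST2-KO libraries. WT replicate 3 lay above sST2-KO replicate 2, so the groups overlapped. The mean was 17.3 ± 18.3 CPM (SD, n = 3) in WT and 114 ± 72.8 CPM (SD, n = 3) in sST2-KO. Its log2 fold change of 2.74 (SE 0.84) had an adjusted p of 0.0577 by edgeR and 0.00155 by DESeq2.

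S100a9 followed the same order of libraries, with 13.7, 13.005 and 65.3 CPM in WT and 209, 56.6 and 367 CPM in sST2-KO. Its means were 30.7 ± 30.01 CPM (SD, n = 3) and 211 ± 155 CPM (SD, n = 3), and its log2 fold change of 2.79 (SE 0.85) had an adjusted p of 0.0569 by edgeR and 0.0297 by DESeq2. The highest WT library had 5.02 times the CPM of the lowest, and the highest sST2-KO library had 6.48 times that of the lowest. Both genes passed the adjusted threshold without sST2-KO replicate 2, with an adjusted p of 0.0461 for S100a8 and 0.0396 for S100a9. Without WT replicate 3 their log2 fold changes were 4.08 and 3.97. The subunits kept a similar ratio in every library. For each 100 S100a9 counts, there were 55.8, 44.9 and 58.7 S100a8 counts in WT and 59.8, 65.2 and 49.4 in sST2-KO, and these ranges overlapped.

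Retnlg, Ly6g and Stfa2l1 are further genes typical of mouse neutrophils. Retnlg encodes resistin-like gamma, a small secreted protein, and lies on chromosome 16 at 48692547 to 48694862 on the plus strand with 4 exons. It had 5.41, 1.98 and 13.4 CPM in WT and 60.6, 11.9 and 23.0 CPM in sST2-KO. WT replicate 3 exceeded sST2-KO replicate 2, and sST2-KO replicate 1 stood far above the other 5 libraries. The log2 fold change was 2.22 (SE 0.78, adjusted p = 0.0833 by edgeR's quasi-likelihood test and 0.0110 by DESeq2), and it was 1.34 without sST2-KO replicate 1.

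Ly6g encodes the surface antigen by which mouse neutrophils are usually recognized, and lies on chromosome 15 at 75027089 to 75030982 on the plus strand with 4 exons. It had 1, 0 and 7 counts in WT and 22, 10 and 27 counts in sST2-KO, the lowest level of the 9 genes in sST2-KO BAT. Its groups did not overlap, at 0.319 ± 0.474 CPM (SD, n = 3) and 1.80 ± 0.774 CPM (SD, n = 3), and the log2 fold change of 2.60 (SE 0.93) had an adjusted p of 0.0870 by edgeR and 0.0556 by DESeq2. With so few counts, the log2 fold change depended on WT replicate 3 and was 4.95 without it.

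Stfa2l1 encodes a stefin, a small cytosolic inhibitor of cysteine proteases, and lies on chromosome 16 at 35977176 to 35982332 on the plus strand with 3 exons. It had 3, 2 and 4 counts in WT and 78, 9 and 180 counts in sST2-KO. The groups did not overlap, but sST2-KO replicate 3 had 16.6 times the CPM of sST2-KO replicate 2. The mean was 0.320 ± 0.156 CPM (SD, n = 3) in WT and 8.09 ± 8.66 CPM (SD, n = 3) in sST2-KO, and the log2 fold change was 4.66 (SE 1.06, adjusted p = 0.0260 by edgeR). The call was lost without WT replicate 1, 2 or 3, where the highest adjusted p was 0.0926. Of the 379 stretches of 50 bases in its transcript, 91 also occur in its paralog Stfa2, which had 2 counts in WT replicate 3 and none in the other WT libraries and had 19, 0 and 9 counts in sST2-KO, so reads of the pair may have been shared or left out.

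Csf3 and its receptor gene Csf3r were both called higher. Csf3 lies on chromosome 11 at 98592089 to 98594458 on the plus strand with 5 exons. It had 2, 9 and 1 counts in WT and 146, 70 and 466 counts in sST2-KO, or 0.187, 0.848 and 0.123 CPM against 10.2, 8.31 and 46.0 CPM. The lowest sST2-KO library thus lay well above the highest WT library. The mean was 0.386 ± 0.401 CPM (SD, n = 3) in WT and 21.5 ± 21.3 CPM (SD, n = 3) in sST2-KO. Its log2 fold change of 5.70 (SE 0.96, adjusted p = 0.0150 by edgeR) was the highest of the 9 genes. It ranged from 4.48 without sST2-KO replicate 3 to 6.97 without WT replicate 2, and the adjusted p rose to 0.0669 without WT replicate 3.

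Csf3r lies on chromosome 4 at 125918262 to 125938236 on the plus strand with 17 exons. It had 8.96, 8.67 and 10.97 CPM in WT and 55.0, 32.3 and 104 CPM in sST2-KO. The WT libraries were close together, with a highest value 1.27 times the lowest, while S100a9 in the same libraries spanned 5.02 times. The mean level was 9.53 ± 1.26 CPM in WT and 63.9 ± 36.9 CPM in sST2-KO (SD, n = 3), and the log2 fold change was 2.75 (SE 0.42, adjusted p = 0.0136 by edgeR). The adjusted p stayed under 0.05 whichever library was left out except WT replicate 3, where it was 0.0614. In Csf3r, 11.7% of the transcript's 50-base stretches occur in transcripts of other genes, most of them in a pseudogene annotated as Csf1r-ps. On the opposite strand, noncoding genes overlap Csf3r (Gm32908) and Csf3 (Gm38985), and the sources used here do not state that strand was used in the counting, so reads of overlapping genes may be shared.

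Trem1 encodes a receptor of neutrophils and monocytes that amplifies inflammatory signals through the adaptor encoded by Tyrobp. It lies on chromosome 17 at 48539784 to 48553952 on the plus strand with 4 exons, and a noncoding gene and a processed pseudogene (Gm18679) overlap it on the other strand. It had 1.49, 1.60 and 1.48 CPM in WT and 8.08, 7.59 and 23.5 CPM in sST2-KO. The WT libraries were nearly equal, and sST2-KO replicate 3 stood above the other sST2-KO libraries. The level rose from 1.52 ± 0.0673 CPM in WT to 13.1 ± 9.05 CPM in sST2-KO (SD, n = 3), by a log2 fold change of 3.09 (SE 0.52, adjusted p = 0.0150 by edgeR). Without WT replicate 3 the adjusted p was 0.0669.

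Hcar2 encodes a receptor for the ketone body beta-hydroxybutyrate and for niacin, which lowers lipolysis in adipocytes. It is a gene of 1 exon, with 3 C/EBP matches in its printed window, on chromosome 5 at 124001633 to 124003562 on the minus strand. It had 16.2, 15.9 and 8.88 CPM in WT and 22.4, 32.0 and 60.2 CPM in sST2-KO. The groups did not overlap, and the lowest WT library was replicate 3, which was the highest WT library for S100a8 and S100a9. The level rose from 13.7 ± 4.16 CPM in WT to 38.2 ± 19.6 CPM in sST2-KO (SD, n = 3). Its log2 fold change of 1.48 (SE 0.41, adjusted p = 0.0424 by edgeR) was the lowest of the 9 genes, and the call was kept with sST2-KO replicate 1 left out and lost with any other library left out, with an adjusted p of up to 0.145.

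**Figure D2:**
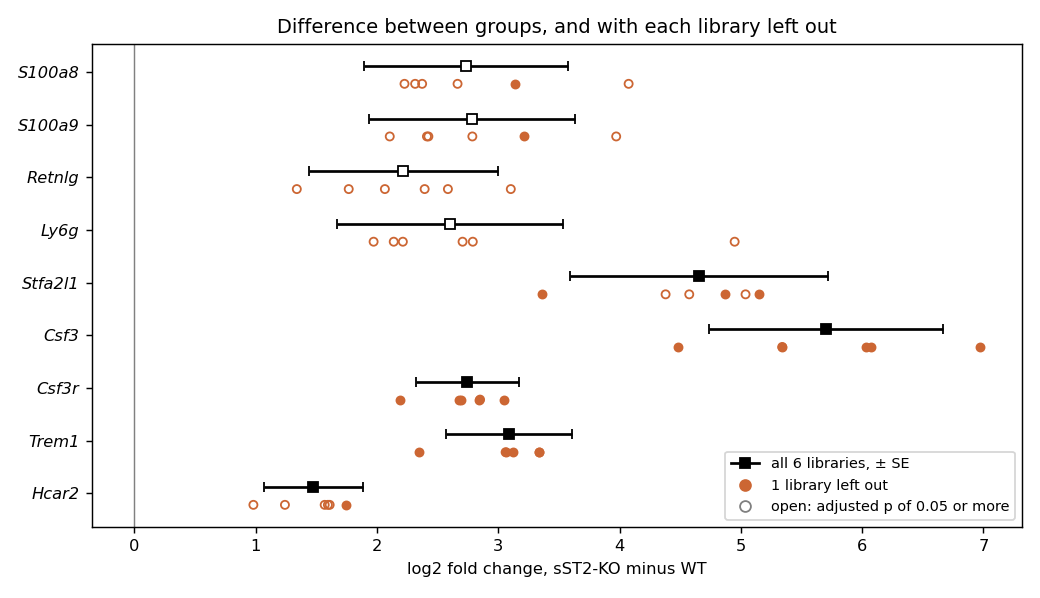
Log2 fold change of each neutrophil gene, sST2-KO minus WT, from edgeR's fit of all 6 libraries (squares, bars are the SE) and from fits of 5 libraries (circles); filled marks have an adjusted p under 0.05. All values lie above 0, from 0.98 for Hcar2 without sST2-KO replicate 3 to 6.97 for Csf3 without WT replicate 2, and Ly6g and Retnlg have no filled mark.

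Within the groups, the genes did not all follow the same libraries. In sST2-KO BAT, replicate 3 was the highest library for 8 of the 9 genes (all but Retnlg) and replicate 2 the lowest for 8 of 9 (all but Hcar2). In WT BAT, replicate 3 was the highest for 6 of 9. These were S100a8, S100a9, Retnlg, Ly6g, Stfa2l1 and Csf3r, and replicate 3 was the lowest for Csf3, Trem1 and Hcar2. Summed over the 9 genes, the level was 54.0, 48.1 and 140 CPM in the WT libraries and 497, 188 and 826 CPM in the sST2-KO libraries. The summed skeletal muscle markers had the same order in sST2-KO, at 6396, 3474 and 14831 CPM. In WT they had another order, at 1218, 21.6 and 7.77 CPM, and a link to the 9 genes was not tested. In a grouping made after the values were seen, S100a8, S100a9, Retnlg, Ly6g and the granule gene Ngp were highest in WT replicate 3 among the WT libraries. Their ratio to the other WT libraries was larger than that of Csf3r, and Trem1 was lowest there. Ly6g had only 7 counts in that library. Of the other granule genes named below, Mpo, Ltf, Camp, Mmp8 and Pglyrp1 were also highest there. Lcn2 and Prtn3 were lowest there, and Elane lay in between. Ngp had 2.61, 0.660 and 14.4 CPM in WT and 39.5, 6.29 and 19.8 CPM in sST2-KO.

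Per kilobase of exon, the order of levels was led by S100a9 and S100a8 in both groups. In WT, the mean CPM per kilobase was 24.0 for S100a9 and 17.5 for S100a8, then 7.09 for Hcar2, 6.42 for Retnlg and 1.87 for Csf3r, and it was at most 0.507 for Trem1, Stfa2l1, Ly6g and Csf3. In sST2-KO it was 165 for S100a9 and 116 for S100a8, then 29.4 for Retnlg, 19.8 for Hcar2, 15.2 for Csf3, 12.5 for Csf3r, 12.2 for Stfa2l1, 4.34 for Trem1 and 1.86 for Ly6g. S100a9 exceeded S100a8 in 3 of 3 libraries of each group. Neighbours whose order changed between libraries were S100a8, Hcar2 and Retnlg in WT, the last 4 genes in WT, and Retnlg, Hcar2, Csf3, Csf3r, Stfa2l1 and Trem1 in sST2-KO, so these were not separated beyond the spread of the libraries. Csf3 was the last of the 9 in WT and the fifth in sST2-KO.

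The leukocyte gene Ptprc, which encodes CD45 of all nucleated blood cells, was itself higher in sST2-KO BAT (31.7 ± 7.95 CPM against 194 ± 80.8 CPM, SD, n = 3 each). Its log2 fold change was 2.61 (SE 0.35, adjusted p = 0.0123 by edgeR), close to the median of the 9 genes. A ratio of counts within a library does not depend on the scaling between libraries. For each 100 Ptprc counts, Csf3r had 22.3, 28.1 and 45.2 counts in WT and 43.9, 18.6 and 36.9 in sST2-KO, with means of 31.9 ± 11.9 and 33.1 ± 13.1 (SD, n = 3). S100a9 had 34.2, 42.2 and 269 counts in WT and 167, 32.6 and 130 in sST2-KO. Trem1 had 5.00 ± 1.20 counts in WT and 6.38 ± 1.97 in sST2-KO (SD, n = 3). The groups overlapped in these ratios, as they did for S100a8, Ly6g, Retnlg and Stfa2l1.

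Csf3 and Hcar2 were the 2 genes whose ratio to Ptprc did not overlap between the groups, in opposite directions. Csf3 had 0.465, 2.75 and 0.508 counts for each 100 Ptprc counts in WT and 8.12, 4.78 and 16.3 in sST2-KO, which was higher in each sST2-KO library. Hcar2 had 40.5, 51.7 and 36.5 counts in WT and 17.9, 18.5 and 21.3 in sST2-KO, which was lower in each sST2-KO library although its CPM was higher. The smallest two-sided p that exact permutation allows for 3 libraries in each group is 0.1, so these ratios are given as values. The monocyte gene Ly6c2 also had a ratio without overlap, at 40.6 ± 10.1 counts in WT and 121 ± 25.4 in sST2-KO (SD, n = 3).

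**Figure D3:**
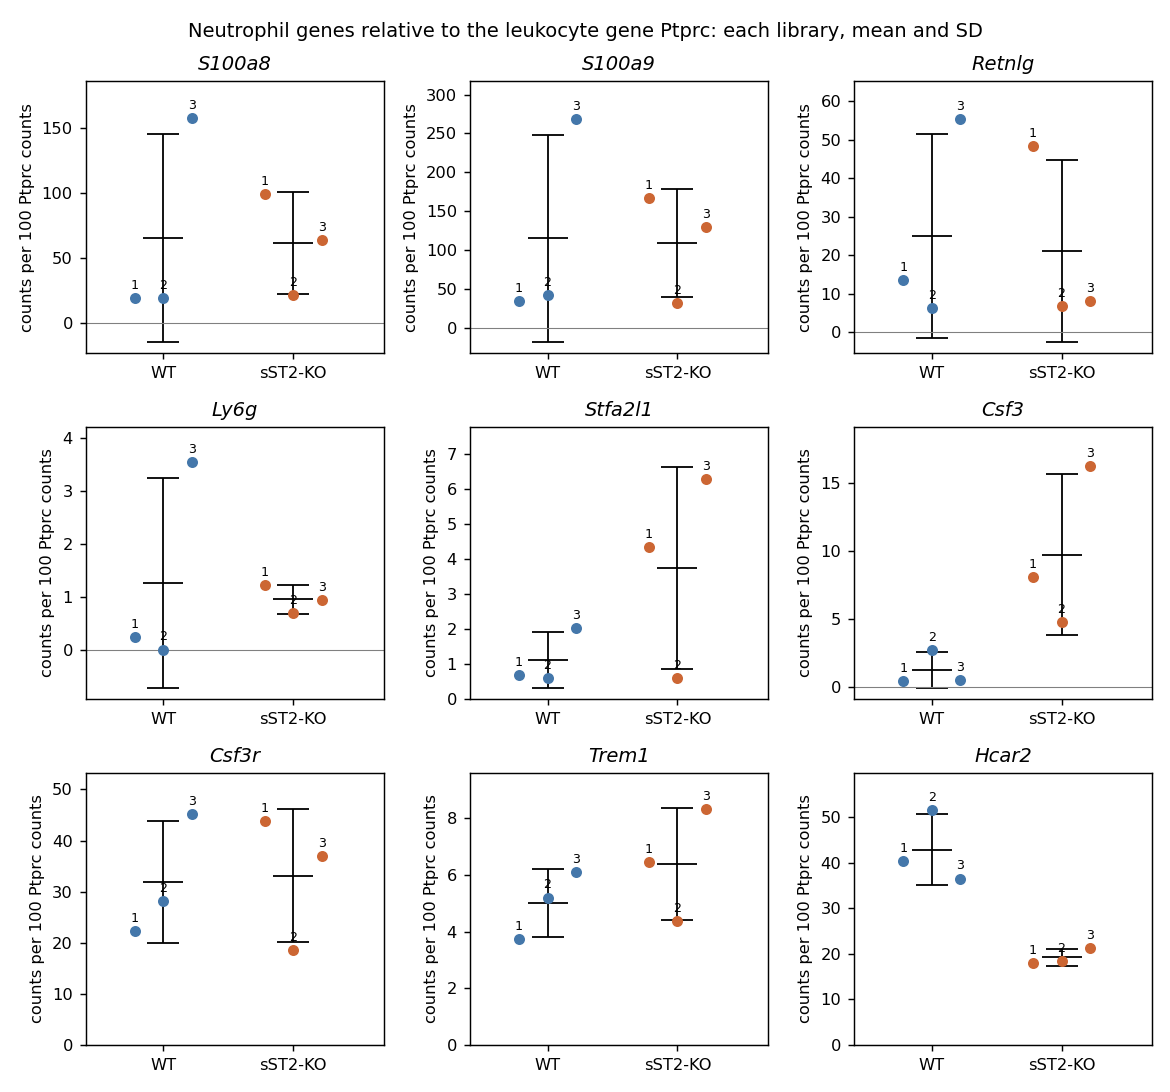
Counts of each neutrophil gene per 100 counts of the leukocyte gene Ptprc in each library of BAT, WT in blue and sST2-KO in orange, with the replicate number beside each point and the mean and SD of 3 libraries as bars. Csf3 is higher and Hcar2 lower in all 3 sST2-KO libraries, and the other 7 genes overlap.

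Markers of some other cell types also differed between the groups, and their part in the values of the neutrophil genes was not tested. All 5 leukocyte markers were called higher (summed level 207 to 293 CPM in WT and 761 to 1699 CPM in sST2-KO). Monocyte markers were called higher in 4 of 5, from 77.3 to 182 CPM in WT to 366 to 1412 CPM in sST2-KO, and T cell markers in 5 of 5, from 10.5 to 12.1 CPM to 88.9 to 113 CPM. Of 8 macrophage markers, 1 was called higher by edgeR, 3 had an unadjusted p under 0.05 and 3 were called by DESeq2, and their summed levels overlapped at 504 to 709 CPM and 651 to 2385 CPM. Of a list of 10 neutrophil markers, which shares 5 genes with the 9 described here, 3 were called higher by edgeR, 7 had an unadjusted p under 0.05 and 6 were called by DESeq2. Their summed level was 32.8 to 160 CPM in WT and 162 to 764 CPM in sST2-KO. Of the 4 mast cell markers tested, 0 were called by edgeR, 3 had an unadjusted p under 0.05 and 4 were called by DESeq2. Their summed level was 4.24 to 6.25 CPM in WT and 5.10 to 102 CPM in sST2-KO, and sST2-KO replicate 3 was the high library. Eosinophil markers stayed at or under 0.790 CPM in every library, and none was tested. B cell markers lay at or under 5.30 CPM in every library, with 0 of 2 tested called by edgeR or DESeq2 and 0 at an unadjusted p under 0.05. Endothelial markers were called higher in 1 and lower in 1 of 5. Of 5 keratinocyte markers 4 had no count in any library.

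A wider list of 73 genes that act with the 9 was counted by role, and 66 of them were tested. Of these 44 were called higher (66.7%, beside 9.04% of all genes) and 0 lower, also at an unadjusted p and by DESeq2, which called 49 higher. Their median log2 fold change was 1.97. Without WT replicate 3, 2 of the 66 were called, Selp and Itgal. The count was 21 without WT replicate 1, 17 without WT replicate 2 and 29 without sST2-KO replicate 3.

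Granule proteins are stored by neutrophils and released on activation. Of 11 tested, 6 were called higher, with a median log2 fold change of 2.02. Lcn2, an iron-scavenging protein that adipocytes also make, had 79.0 ± 57.1 CPM in WT and 813 ± 775 CPM in sST2-KO (SD, n = 3), and its log2 fold change was 3.36 (adjusted p = 0.0445 by edgeR). Its groups overlapped, with 144 CPM in WT replicate 2 and 121 CPM in sST2-KO replicate 2. The Lcn2 call was kept without sST2-KO replicate 2 and lost with any other library left out, with an adjusted p of up to 0.155 by edgeR. The collagenase gene Mmp8 rose by 3.08 (adjusted p = 0.0245) and the bactericidal protein gene Pglyrp1 by 2.02 (adjusted p = 0.0160) on the log2 scale. The granule genes that were not called, and that are named here after their values were seen, include Ngp (1.92, adjusted p = 0.217), Camp (1.71, adjusted p = 0.330), Ltf (2.07, adjusted p = 0.195) and Elane (-0.13, adjusted p = 0.881). Mpo and Prtn3, likewise named after their values were seen and, like Elane, genes of primary granule proteins, were called higher (2.56, adjusted p = 0.0297, and 1.29, adjusted p = 0.0435). On the opposite strand, Gm11505 overlaps Mpo and Plppr3 overlaps Prtn3, so their reads may be shared.

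Receptors of neutrophils were called higher in 7 of 11 tested by edgeR and in 10 by DESeq2, with a median log2 fold change of 2.97. Il1r2, the decoy receptor of interleukin 1, rose by 2.82 on the log2 scale (adjusted p = 0.0122). C5ar1, the receptor of complement C5a, and Clec4d, a lectin of myeloid cells, were not called by edgeR (1.19, adjusted p = 0.104, and 3.60, adjusted p = 0.0575), while both were called by DESeq2, and Clec4d also passed with total-count scaling and with no filter on low counts.

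Chemoattractants and the enzymes that make them were called higher in 5 of 8. Cxcl1, a neutrophil-attracting chemokine, rose from 4.19 ± 3.76 CPM to 52.1 ± 18.9 CPM (SD, n = 3), by 3.61 on the log2 scale (adjusted p = 0.0154). Cxcl2, a chemokine that binds the same receptor, had 2.24, 3.58 and 0.740 CPM in WT and 43.8, 16.6 and 405 CPM in sST2-KO (log2 fold change 6.11, adjusted p = 0.0231), so that sST2-KO replicate 3 made most of the mean. Alox5ap, needed for leukotriene synthesis, rose by 1.93 (adjusted p = 0.0326).

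In a list of genes around G-CSF, 8 of 10 tested were called higher, among them Csf2ra and Csf2rb. These encode subunits of the receptor of GM-CSF, another cytokine. Socs3, a feedback inhibitor of G-CSF signaling that STAT3 induces, rose from 28.9 ± 11.6 CPM to 151 ± 53.3 CPM (SD, n = 3), by 2.38 on the log2 scale (adjusted p = 0.0142). Gfi1, a transcriptional repressor required for neutrophil differentiation, had 0.269 ± 0.187 CPM in WT and 2.97 ± 0.180 CPM in sST2-KO (SD, n = 3), and its log2 fold change was 3.40 (adjusted p = 0.0136). Stat3 (0.48, adjusted p = 0.201) and Cebpb (0.049, adjusted p = 0.933) were not called, and the sign for Cebpb changed without WT replicate 3 or sST2-KO replicate 2.

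In a list of the TREM1 pathway and related receptors, 6 of 8 genes were called higher. The adaptor gene Tyrobp (1.76, adjusted p = 0.0312), the kinase gene Syk (1.76, adjusted p = 0.0457) and the related receptor genes Treml2 (2.43, adjusted p = 0.0162) and Trem3 (3.56, adjusted p = 0.0203) were among them. Of the 5 receptors and adaptors of extracellular S100A8 and S100A9, 0 were called by edgeR, 3 had an unadjusted p under 0.05 and 2 were called by DESeq2. Myd88, an adaptor of toll-like receptors, had an adjusted p of 0.0307 with a log2 fold change of 0.88, under the fold minimum, and the co-receptor gene Cd14 had one of 1.74 (adjusted p = 0.0815).

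Subunits of the phagocyte oxidase, which makes superoxide, were called higher in 5 of 6. Rac2 (2.51, adjusted p = 0.0120), Ncf4 (2.40, adjusted p = 0.0183) and Cyba (1.84, adjusted p = 0.0344) were called. Genes of leukocyte adhesion were called higher in 7 of 7. They include the integrin genes Itgam (2.67, adjusted p = 0.0167), Itgb2 (2.54, adjusted p = 0.0148) and Itgal (2.68, adjusted p = 0.00900), and Selp, the selectin of platelets and activated endothelium (3.41, adjusted p = 0.00900).

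**Figure D4:**
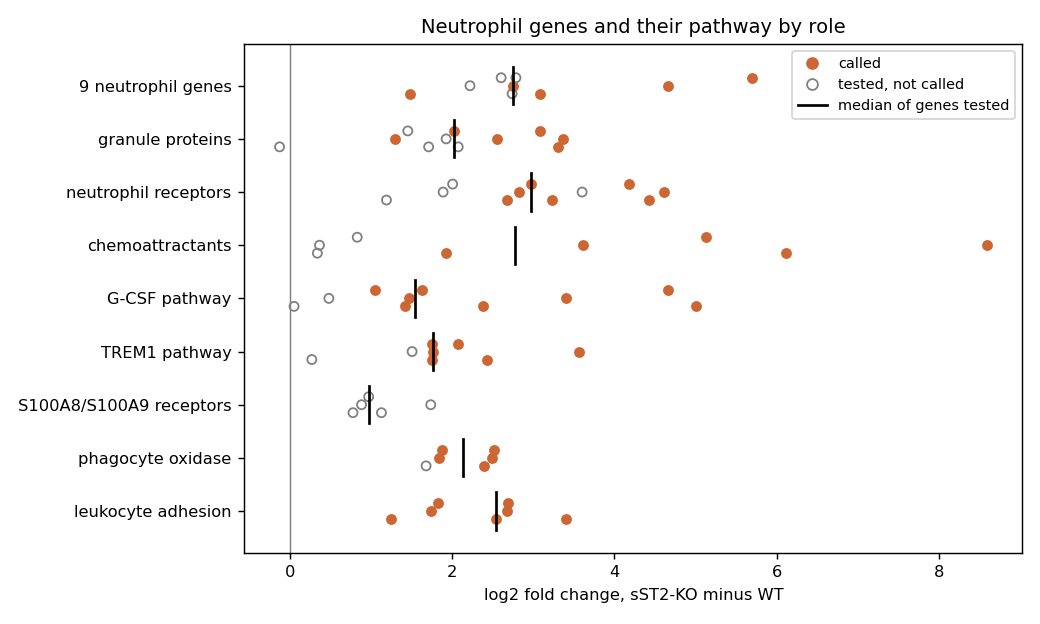
Log2 fold change, sST2-KO minus WT, of the 9 neutrophil genes and of the genes tested in each of 8 lists by role. Filled points were called (adjusted p under 0.05 and fold change above 2) and the black line is the median of a list, which lies between 0.97 for the receptors of S100A8 and S100A9 and 2.97 for the neutrophil receptors.

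The 5 genes outside the 9 whose profile over the 6 libraries was nearest to their mean profile were Il1r2, Ifitm1, Mcemp1, Ifitm6 and Ccl5, out of 11614 genes compared. Likeness was measured as the root mean square difference of log2 CPM after centring each gene over the 6 libraries, and it was 0.237, 0.319, 0.333, 0.339 and 0.352. Of the 9 genes themselves, Csf3r was the nearest to the mean profile (0.246) and Csf3 the farthest (1.39), with Hcar2 at 1.02.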

How the data were processed

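BAT of 3 WT and 3 sST2-KO samples was analyzed. Per the labels and the methods of the study, the authors built poly-A-selected libraries with the NEBNext Ultra RNA kit, sequenced them as 150 bp paired-end reads and counted reads per gene with htseq-count. The submitters' processing notes name FastQC 0.12.1, HISAT2 2.2.1 and mm39, and the version, annotation and strand setting of the counting are not given in the sources used here. The deposited values are raw counts per gene symbol, and the scripts left 0 per-sample columns unused. The 30 °C stage is shown in the study's schematic.

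Counts were filtered by filterByExpr, which left 14542 of 24599 genes with at least 1 count, scaled by TMM (factors 0.825 to 1.14) and compared with edgeR 4.0.16 in R 4.3.3 (glmQLFit and glmQLFTest, no covariate). The SE is the log2 fold change divided by the square root of F. The common biological coefficient of variation was 0.325. DESeq2 1.42.0 was an alternative. The fits were also run on simulated counts that gave every gene the common dispersion, so that run does not cover spread that differs between genes. Precision is limited by 3 libraries per group.

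The 9 genes, all lists, tests and alternatives were chosen with earlier results of these data known. Named genes are the 9, up to 4 per other list (the 2 of highest mean CPM and the 2 of lowest p), the 5 of nearest profile (mean log2 CPM of at least 2) and Ptprc. Others were named after their values were seen. Chi-square per degree of freedom between libraries of a group was 36.6 to 104, and no library duplicated another. The main fit did not pair samples by replicate number. Between samples of the same number, the deviations from the group means correlated at -0.058, 0.21 and -0.31. With so few libraries, these values cannot decide whether the numbers pair the samples. Alternatives were DESeq2, total counts or RLE factors for scaling, no filter or a filter of 10 counts in every sample, no minimum fold, a replicate block and leaving out each library. Coordinates, exon lengths and transcripts are from GENCODE on GRCm39, the build of mm39. Python 3.11.15 with matplotlib 3.10.9 drew the figures. The results of 1 gene of the lists and 1 upstream window are not reported here.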

Additional observations from a re-analysis of the deposited data

How the results depend on the processing

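All 9 neutrophil genes kept a positive log2 fold change in each setting that tested them. Called members numbered 5 with RLE factors, 7 with total counts, which moved the median of all genes from 0.034 to 0.29, 7 without a filter, and 5 of 6 tested with at least 10 counts in every sample, a filter that removes Csf3, Ly6g and Stfa2l1. DESeq2 called 8 members. With the replicate block, 0 genes were called higher and 0 lower over the whole table, and 0 of the 9 and 0 of the 73, while 4623 genes and all 9 had an unadjusted p under 0.05. With 1 library left out, the genes called higher ranged from 36 (without WT replicate 3) to 1383, those called lower from 22 to 998, called members from 0 to 6, called genes of the 73 from 2 to 43, and the median of the members from 2.23 to 3.97 (without WT replicate 3). The cause was not tested. Among other named genes, the sign changed for the log2 fold change of Cebpb (0.049, and -0.031 with the replicate block, with 1 library left out from -0.42 to 0.26), for the log2 fold change of Cdh5, an endothelial gene (-0.037, and 0.22 with total counts, with 1 library left out from -0.41 to 0.16) and for the log2 fold change of C1qa, a macrophage gene (0.80, with 1 library left out from -0.13 to 1.11). At this depth, Ly6g and Stfa2l1 rest on fewer than 10 counts in each WT library and Csf3 on at most 9.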

Other observations

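Relatives of the 9 neutrophil genes by family were counted separately. Of 16 tested, 4 were called higher and 2 lower in sST2-KO BAT, with a median log2 fold change of 0.60. In the Ly6 family, Ly6c2, a surface protein of monocytes, had 13.1 ± 4.81 CPM in WT and 248 ± 153 CPM in sST2-KO (SD, n = 3), and its log2 fold change was 4.24 (adjusted p = 0.0122 by edgeR). The widely expressed Ly6a and Ly6e were not called (0.94, adjusted p = 0.122, and 0.49, adjusted p = 0.304). In the S100 family, S100a4, a protein of motile cells and fibroblasts, was called higher (2.05, adjusted p = 0.0154).

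Named after their values were seen, S100a1 and S100a13 were called lower. S100a1, a calcium sensor of muscle and other tissues, fell from 416 ± 115 CPM to 139 ± 56.7 CPM (SD, n = 3), and its log2 fold change was -1.58 (adjusted p = 0.0291). S100a13 had a log2 fold change of -1.13 (adjusted p = 0.0261). The genes overlap on opposite strands, so their reads may be shared. S100a6 (1.10, adjusted p = 0.0452) and Ly6i (4.37, adjusted p = 0.0306) were the other 2 called higher.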
